A study of Homo sapiens with 11 samples.

Results

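The cells described here are cardiomyocytes that carried *MYL2* transcripts, the regulatory myosin light chain used as a marker of the ventricle. Cardiomyocytes were taken as droplet barcodes with at least 1000 UMIs (unique molecular identifiers, each standing for 1 captured RNA molecule), at least 500 genes, at most 30% of UMIs from mitochondrial genes and at least 0.15% of UMIs from *TNNT2* and *MYH6* together. A cardiomyocyte was counted as *MYL2*-positive when it had 2 or more *MYL2* UMIs, and was compared with cardiomyocytes of the same sample that had 0. By this rule 280 of 13426 cardiomyocytes, out of 16397 barcodes that passed the filters, were *MYL2*-positive, and 12707 had no *MYL2* UMI. The members were thus chosen by a measured value, and their *MYL2* level is a description only.

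All cells came from H9, an established human embryonic stem cell line, differentiated to the heart muscle lineage and sampled at day 42.5. One group, of 3 libraries, was a 2D culture. The other two were cardioids, heart-like organoids with chambers, grown with PD173074 (3 libraries) or without it (5 libraries). PD173074 is an inhibitor of the FGF receptor tyrosine kinases. The labels name no genotype, no separate cultures and no time or dose of PD173074. The 11 libraries turned out to be repeat runs of 3 sets of droplets, so each group is 1 sample, all intervals below are 95% intervals that cover counting error only, and no p-value is given.

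In the heart, the ventricle and the atrium build their contractile filaments from partly different proteins. *MYL2* and the slow myosin heavy chain *MYH7* belong to the working ventricle, while *MYL7* and the heavy chain *MYH6* dominate the atrium and are also made by young cardiomyocytes of either chamber. With maturation, cardiomyocytes also exchange the slow skeletal troponin I (*TNNI1*) for the cardiac one (*TNNI3*). The transcription factors *IRX4* and *HEY2* mark the ventricle early, and *NR2F1* and *NR2F2* mark the atrium.

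The 2D culture held most of the *MYL2*-positive cells. There 239 of 6959 cardiomyocytes, 3.43% (exact binomial interval 3.02 to 3.89), were *MYL2*-positive. In cardioids without PD173074 the share was 1.01% (0.684 to 1.42), 31 of 3082 cells, and in cardioids with PD173074 it was 0.295% (0.142 to 0.543), 10 of 3385 cells. The 3 intervals did not overlap, but each group is 1 sample. Barcodes that passed the filters but not the cardiomyocyte gate also had 2 or more *MYL2* UMIs. Their share was 3.21% (2.31 to 4.35) in the 2D culture, 0.206% (0.00522 to 1.14) without PD173074 and 0.0806% (0.00204 to 0.448) with it. In each sample this interval overlapped that of the cardiomyocytes. The order of the cardiomyocyte shares was the same after every cell was thinned to 2000 UMIs, where they were 2.14%, 0.549% and 0.0321%, the last being 1 of 3111 cells. The gap between the cardioid samples depended on the gate: when *TNNT2* and *MYH6* had to reach 0.5% of UMIs, the shares were 2.56% in the 2D culture, 0.410% (0.15 to 0.889; 6 of 1465 cells) without PD173074 and 0.340% (0.137 to 0.700; 7 of 2058) with it, and the last 2 intervals overlapped. Sequencing depth did not follow that order: the median cardiomyocyte without *MYL2* had 4256 UMIs in the 2D culture, 5329 in cardioids without PD173074 and 6182 in cardioids with it. The *MYL2*-positive cells were deeper than those in each sample, with medians of 5553, 6803 and 8317 UMIs, and values at equal depth are given below.

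Most *MYL2*-positive cells carried few *MYL2* molecules. In the 2D culture the median was 5 UMIs, the quartiles were 2 and 12 and the highest cell had 112. Of the 239 cells, 66 (27.6%) sat exactly at the threshold of 2, 123 had 5 or more and 41 had 20 or more, and the tenth of the cells with most *MYL2* held 48.0% of its 2893 UMIs. In cardioids without PD173074 the median was 4, 9 cells had 20 or more, and 1 cell with 227 UMIs held 36.2% of all 627. The 10 cells of the cardioids with PD173074 had 2, 2, 2, 2, 3, 3, 4, 4, 12 and 19 UMIs, so no cell there reached 20. The plot of *MYL2* UMIs per cell shows this gradient.

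**Figure D1:**
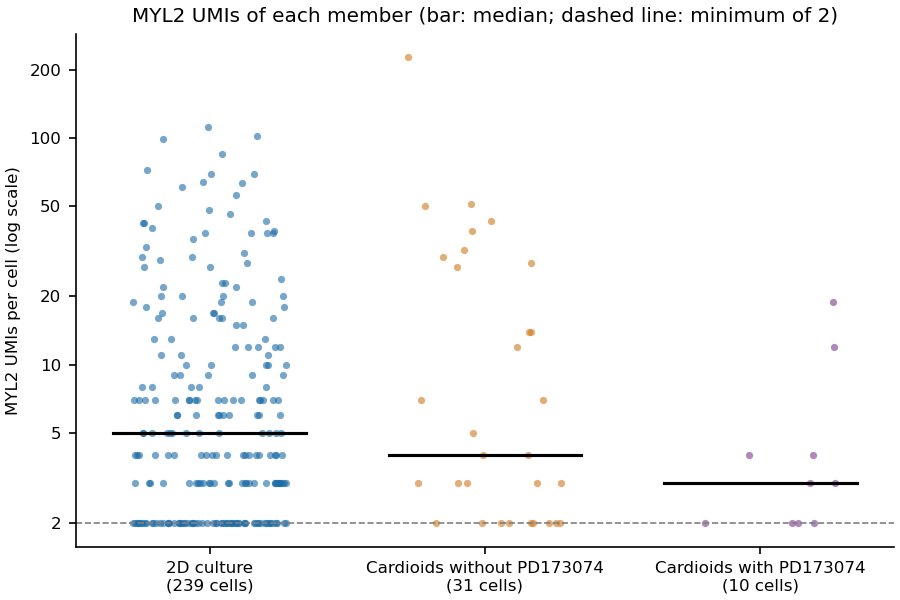
*MYL2* UMIs per *MYL2*-positive cardiomyocyte in each of the 3 samples, on a log axis; each point is 1 cell. The 2D culture has 239 points with a median of 5, cardioids without PD173074 have 31 with a median of 4 and 1 cell at 227, and cardioids with PD173074 have 10, none above 19.

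Repeat runs of the same droplets bear on how often a cell crosses the threshold by sampling in sequencing. They read the same captured RNA, so they do not bear on capture, RNA from other cells or doublets. In run 2 of the 2D library 186 of the 239 cells (77.8%) again had 2 or more *MYL2* UMIs, against 0.282% of the cells that had none in run 1. Fewer cells did so in the cardioids. With PD173074 it was 6 of 10 (60%) in run 2 and in run 3. Without PD173074 it was between 19 of 31 (61.3%, run 3) and 23 of 31 (74.2%, run 2). Of the 123 cells of the 2D culture with 5 or more UMIs, 120 in run 2 and 123 in run 3 again had at least 2. At the threshold itself, cells with exactly 2 *MYL2* UMIs had *MYH7* at 494 CPM (counts per 10 to the power 6, that is a gene's UMIs scaled to a common total of the summed cells), and those with 1 UMI, just outside the rule, had 200. *MYL7* was at 3824 against 2056 CPM between these neighbours, *CRYAB* at 617 against 274, *ACTA1* at 297 against 197 and *MYH6* at 1497 against 1663. So cells just inside the rule differed from those just outside it by far less than the cells richest in *MYL2* did.

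The name ventricular was checked against *MYH7*, *HOPX* and *ACTA1*, the markers fixed with *MYL2*. In the 2D culture *MYH7* was at 1510 CPM (interval 1450 to 1573) in *MYL2*-positive cells and at 43.7 CPM in *MYL2*-negative ones, a log2 ratio of 5.11 (5.01 to 5.21), and 185 of the 239 cells had an *MYH7* UMI. *HOPX*, a homeodomain-only protein of cardiomyocyte maturation, was at 84.5 against 2.13 CPM, a log2 ratio of 5.31 (4.88 to 5.75), with a UMI in 57 cells. *ACTA1*, skeletal muscle alpha-actin, which heart muscle also makes, was at 1170 against 123 CPM, a log2 ratio of 3.25 (3.17 to 3.33), with a UMI in 127 cells. All 3 markers were thus higher as a sum, but only 39 cells had a UMI of each and 30 had none of them.

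The 3 markers did not behave alike in the cardioids. Without PD173074, *MYH7* was at 1342 against 14.8 CPM, a log2 ratio of 6.5 (6.26 to 6.74), and *HOPX* at 89.8 against 6.27, a log2 ratio of 3.84. *ACTA1* there was at 1404 against 99.8 CPM, but 52.6% of its UMIs in the *MYL2*-positive cells lay in 1 cell. Without that cell the level was 686 CPM and the log2 ratio 2.78 (2.54 to 3.01). With PD173074, *MYH7* was at 508 against 9.79 CPM, a log2 ratio of 5.70 (5.19 to 6.17) on 43 UMIs in 6 of the 10 cells. *HOPX* there had a log2 ratio of 1.12 with an interval from -1.93 to 2.99, and *ACTA1* had 130 against 60.2 CPM, so of the 3 markers other than *MYL2* only *MYH7* was called there. The early ventricular factor *IRX4* did not go with *MYL2* in the 2D culture (68.4 against 64.9 CPM), and the cells are therefore called *MYL2*-positive throughout.

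Detection at equal depth gave the same picture. After thinning to 2000 UMIs, which left 232 *MYL2*-positive and 5886 *MYL2*-negative cells of the 2D culture and dropped 7 and 495 shallower ones, *MYH7* was detected in 68.5% (62.1 to 74.5) against 4.45%. Without thinning the shares were 77.4% and 7.77%. Barcodes outside the cardiomyocyte gate with 0 *MYL2* UMIs, 1040 at that depth, gave 2.12% (1.33 to 3.19) for *MYH7*. These barcodes passed the same filters on UMIs, genes and mitochondrial share, so they can hold cells with RNA of their own. They are a comparison and not a measure of free RNA. Median depths before thinning were 5605.5 UMIs in the *MYL2*-positive cells, 4425 in the negative ones and 7169.5 outside the gate. *HOPX* was detected in 10.3% of positive against 0.425% of negative cells, which is below the 0.673% outside the gate, and *ACTA1* in 39.7% against 13.8%, with 4.33% outside. *CRYAB*, a small heat shock protein of muscle, was detected in 73.7% against 23.9%, with 33.8% outside. *MYH6* went the other way, with 62.1% against 92.9%.

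Across all genes, a gene was called higher or lower when it reached 20 CPM in the higher set and the whole interval of the ratio lay beyond 2-fold. In the 2D culture 121 genes other than *MYL2* were called higher, 1.54% of the 7855 genes at the floor, and 27 were called lower, 0.344%. In cardioids without PD173074 80 genes (0.948% of 8439) were higher and 44 (0.521%) lower, and with PD173074 93 (1.07% of 8676) were higher and 55 (0.634%) lower. Scaling by the median of gene ratios in place of totals turned the 80 and 44 of cardioids without PD173074 into 93 and 31. With 10 cells the last sample gave calls on very few molecules: 28 of its 93 higher genes rested on 5 or fewer UMIs, and 23 on fewer than 3 cells. The median log2 ratio of all genes was -0.09, -0.09 and 0.07 in the 3 samples.

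**Figure D2:**
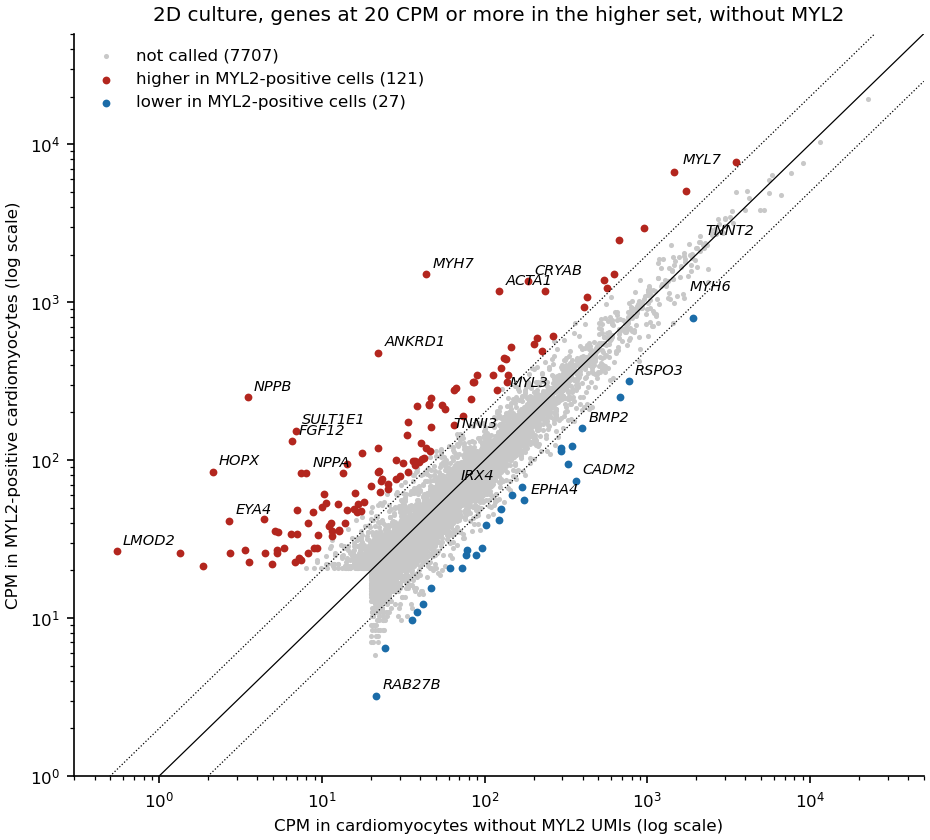
Each point is 1 gene of the 2D culture, with its CPM in the summed *MYL2*-negative cardiomyocytes on the x axis and in the 239 *MYL2*-positive ones on the y axis, both log scales; dotted lines mark 2-fold. The 121 genes called higher are red and the 27 called lower are blue; *NPPB*, *LMOD2*, *HOPX* and *MYH7* lie farthest above the diagonal among the labelled genes, with log2 ratios of 6.16, 5.59, 5.31 and 5.11.

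Of the 38 sarcomere genes at the floor in the 2D culture, 14 were called higher and 0 lower, with a median log2 ratio of 0.85. *TNNC1*, the calcium-binding troponin subunit, was at 2473 against 668 CPM (log2 ratio 1.89), and *ACTC1*, cardiac alpha-actin, at 5042 against 1732 (1.54). *TCAP*, the titin cap of the Z-disc, was at 313 against 85.8 CPM (1.87), and *SORBS2*, an adaptor at Z-discs from the stretch list below, at 2955 against 950 (1.64). *LMOD2*, which elongates the thin filament, was at 26.5 against 0.548 CPM, a log2 ratio of 5.59 (4.76 to 6.48) with a UMI in 23 cells. *MYL3*, the essential light chain of the ventricle and in the ventricular list, was at 384 against 126 CPM, a log2 ratio of 1.60 (1.48 to 1.73). *TNNT2*, which the rule itself uses, differed little, with a log2 ratio of 0.21.

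*MYL7*, the light chain of atrial and young cardiomyocytes, was also higher in the *MYL2*-positive cells of the 2D culture, at 6631 against 1455 CPM, a log2 ratio of 2.19 (2.16 to 2.22). It was found in 234 of the 239 cells, and *MYL2* exceeded *MYL7* in only 25 of them. The atrial list, which holds *MYL7*, had 3 of 10 genes called higher, with a median of 0.47, and the ventricular list 7 of 18, with a median of 0.32. *FGF12*, an intracellular FGF homologue that binds sodium channels, was at 132 against 6.57 CPM (log2 ratio 4.32, 41 cells). *NR2F2*, an atrial transcription factor, was not called, with a log2 ratio of -0.61, and *NR2F1* had no UMI in the 239 cells.

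The heavy chain pair ran in opposite directions along the *MYL2* gradient. In the 2D culture *MYH7* was at 43.7 CPM in cells with 0 *MYL2* UMIs, 200 with 1, 726 with 2 to 4, 1835 with 5 to 19 and 2992 with 20 or more. *MYH6* over the same classes was at 1672, 1663, 1469, 885 and 346 CPM. *MYH6* is part of the rule that defines a cardiomyocyte here, so its level is partly set by that rule. UMIs count transcript ends, so gene length does not enter a share between 2 genes, but each gene's own capture may. The share of *MYH7* in the summed UMIs of both heavy chains was 2.55%, 10.7%, 33.1%, 67.5% and 89.6%. Of the 239 cells, 119 had UMIs of both chains, 134 had more *MYH7* than *MYH6* and 2 had neither.

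The troponin I pair shifted less far. *TNNI3* was at 210 against 57.2 CPM in the 2D culture, a log2 ratio of 1.88 (1.71 to 2.05), while *TNNI1* was at 3109 against 2770 (0.17). The *TNNI3* share of the pair was 2.02% in *MYL2*-negative cells, 2.28% with 1 UMI, 3.44% with 2 to 4, 6.45% with 5 to 19 and 13.8% with 20 or more. The fetal isoform therefore held most troponin I molecules even in the cells richest in *MYL2*. In those 41 cells *MYL2* made up 36.5% of the light chain pair with *MYL7*.

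The same shares were read in the cardioids. Without PD173074 the *MYH7* share was 0.736% in *MYL2*-negative cells, 15.6% with 2 to 4 *MYL2* UMIs, 33.9% with 5 to 19 and 88.4% with 20 or more, and the *TNNI3* share reached 27.8% in the last class of 9 cells. With PD173074 the *MYH7* share was 0.315% at 0 UMIs, 18.1% with 2 to 4 and 21.4% with 5 to 19, the last class holding 2 cells. *MYH7* exceeded *MYH6* in 14 of 31 cells without PD173074 and in 2 of 10 with it.

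**Figure D3:**
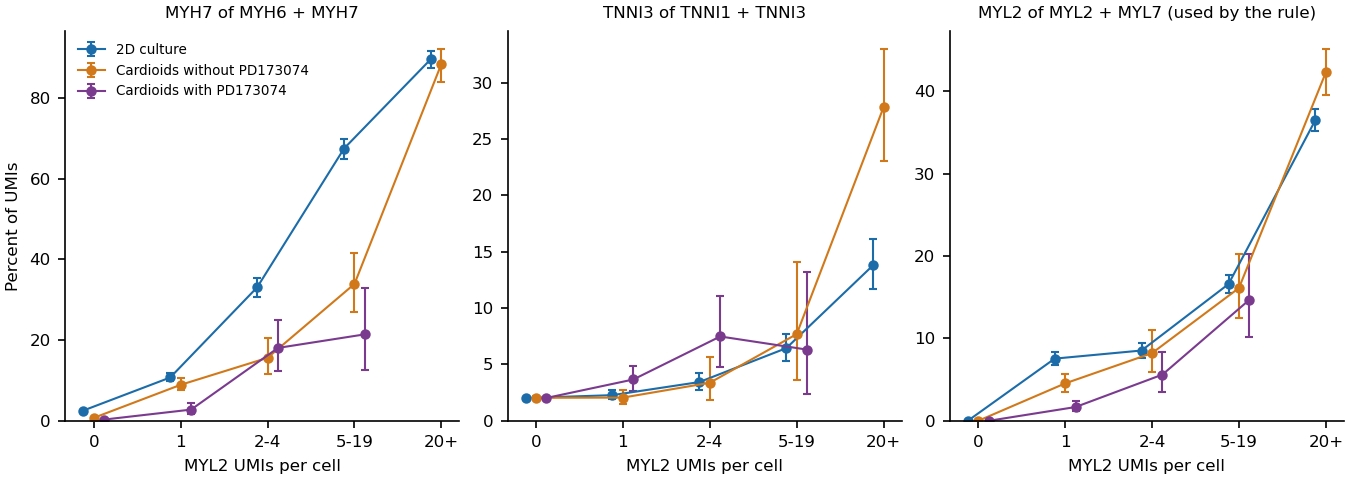
Share of *MYH7* in *MYH6* plus *MYH7*, of *TNNI3* in *TNNI1* plus *TNNI3* and of *MYL2* in *MYL2* plus *MYL7* UMIs, in percent, by *MYL2* UMIs per cell; lines are the 3 samples and bars are exact 95% binomial intervals. The *MYH7* share goes from 2.55% to 89.6% in the 2D culture, while the *TNNI3* share ends at 13.8%.

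Natriuretic peptide and stretch genes, which heart muscle makes under load, were also higher. Of 12 at the floor in the 2D culture 8 were called higher and 0 lower, with a median log2 ratio of 1.5, and 3 of the 8 (*ANKRD1*, *CRYAB* and *CSRP3*) also stand in the sarcomere list. *ANKRD1*, a stretch-induced ankyrin repeat protein, was at 478 against 22.2 CPM (log2 ratio 4.43) with a UMI in 108 cells, and *CRYAB* at 1355 against 185 CPM (2.87) in 208 cells. *NPPA*, the atrial natriuretic peptide, was at 82.6 against 8.0 CPM, a log2 ratio of 3.37 (3.05 to 3.68). *NPPB*, the B-type natriuretic peptide, was at 250 against 3.5 CPM, but 55.6% of its 387 UMIs lay in 1 cell with 99 *MYL2* UMIs. Without that cell *NPPB* was at 112 CPM and its log2 ratio was 5.0 (4.65 to 5.35) in place of 6.16.

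These genes entered at different points of the gradient. *CRYAB* was at 185, 274, 647, 1939 and 2154 CPM from 0 to 20 or more *MYL2* UMIs, and *ANKRD1* at 22.2, 76.8, 157, 583 and 1137. *NPPA* stayed between 8.0 and 32.2 CPM up to 19 UMIs and was at 314 with 20 or more. *HOPX* was at 2.13, 3.96, 14.7, 70.7 and 296 CPM. *LMOD2* was at 2.68 CPM with 2 to 4 UMIs, 34.4 with 5 to 19 and 74.9 with 20 or more. Cells with 2 to 4 *MYL2* UMIs alone gave 39 higher genes against *MYL2*-negative cells, 37 of them among the 121, and 120 of the 121 had the same sign there.

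**Figure D4:**
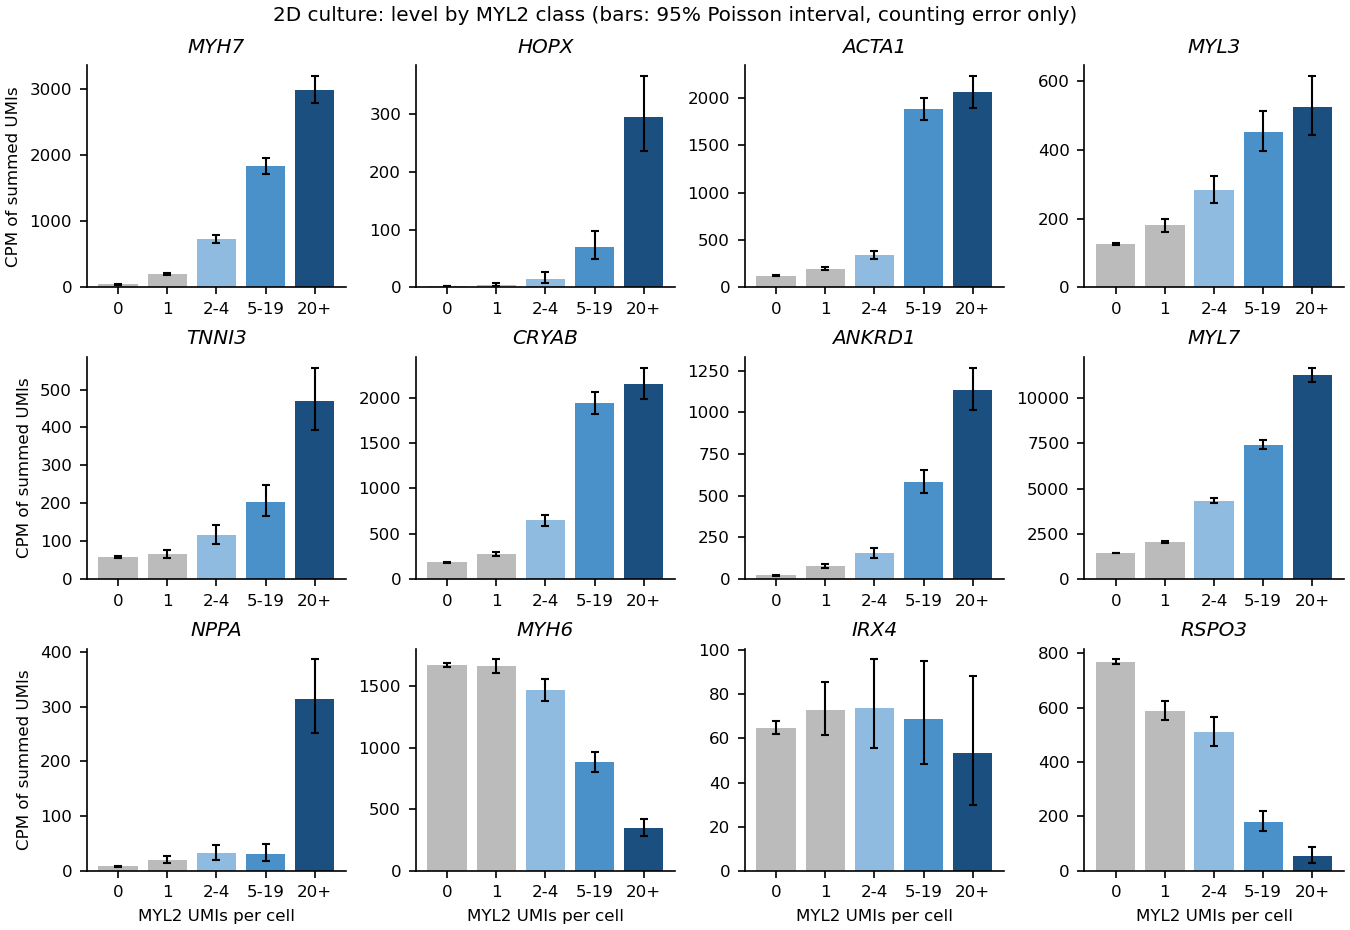
CPM of 12 genes in the 2D culture by *MYL2* UMIs per cell (0, 1, 2 to 4, 5 to 19, 20 or more), with exact 95% Poisson intervals. *MYH7*, *HOPX*, *CRYAB* and *ANKRD1* increase over the classes, *MYH6* and *RSPO3* decrease, and *IRX4* stays between 53.5 and 73.7 CPM.

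Promoter sequence is shown for 5 of these genes, since they were higher together and a muscle or heart motif stands in each. The 250 bases before the annotated start were taken from RefSeq on GRCh38.p14, 5′ to 3′ on the gene's strand. *ACTA1* (chr1:229434095-229434344, minus strand) has the M-CAT element CATTCC, the site bound by TEAD factors, 70 bases before the start and its complement 47 bases before it. *ANKRD1* (chr10:90921088-90921337, minus) has M-CAT 220 and 128 bases before the start and a GATA motif, AGATAA, 52 before it. *TNNI3* (chr19:55157733-55157982, minus) has GATA motifs 71 and 7 bases before the start, *LMOD2* (chr7:123655616-123655865, plus) has 1 at 242, and *MYL7* (chr7:44141333-44141582, minus) has M-CAT at 139. Capitals mark these motifs on either strand.
ACTA1: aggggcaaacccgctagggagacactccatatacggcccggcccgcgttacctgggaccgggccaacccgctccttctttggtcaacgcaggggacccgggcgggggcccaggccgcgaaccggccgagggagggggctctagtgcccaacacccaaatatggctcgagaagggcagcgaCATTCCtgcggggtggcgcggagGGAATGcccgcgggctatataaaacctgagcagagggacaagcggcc
ANKRD1: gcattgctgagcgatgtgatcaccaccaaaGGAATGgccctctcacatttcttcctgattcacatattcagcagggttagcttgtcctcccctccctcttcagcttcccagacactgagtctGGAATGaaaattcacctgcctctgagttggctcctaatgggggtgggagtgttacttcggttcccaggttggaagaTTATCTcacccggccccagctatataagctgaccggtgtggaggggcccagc
TNNI3: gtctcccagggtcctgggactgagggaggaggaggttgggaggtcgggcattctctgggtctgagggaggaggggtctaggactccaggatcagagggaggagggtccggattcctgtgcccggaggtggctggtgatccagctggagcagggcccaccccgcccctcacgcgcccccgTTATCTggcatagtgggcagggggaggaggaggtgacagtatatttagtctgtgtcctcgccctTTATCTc
LMOD2: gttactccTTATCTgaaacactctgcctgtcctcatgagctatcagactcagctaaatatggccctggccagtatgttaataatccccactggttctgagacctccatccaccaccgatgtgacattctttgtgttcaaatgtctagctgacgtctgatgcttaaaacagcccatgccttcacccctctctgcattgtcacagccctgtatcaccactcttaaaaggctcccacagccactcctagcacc
MYL7: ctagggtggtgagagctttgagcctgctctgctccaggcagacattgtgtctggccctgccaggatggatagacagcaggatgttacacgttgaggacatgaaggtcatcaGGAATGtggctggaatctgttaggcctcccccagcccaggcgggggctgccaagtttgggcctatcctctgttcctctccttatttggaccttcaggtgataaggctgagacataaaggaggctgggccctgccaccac

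Such short motifs are common, so their share was set beside that of other genes. Of the 121 higher genes 90 had a promoter in the table. M-CAT stood in 13 of them (14.4%), against 9.35% of 6321 genes at the floor and 11.9% of all 27305 promoters, and GATA in 16 (17.8%), against 4.45% and 9.37%. The MEF2 motif CTA, any 4 bases, TAG stood in 5 (5.56%), against 1.84% and 2.42%. Of 19 promoters of lower genes, 0 held M-CAT, 1 GATA and 1 MEF2. The motifs were searched on both strands and do not overlap 1 another in letters, and a match is a description of the letters, not of binding.

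The transcription factors *IRX4*, *HEY2*, *IRX3* and *IRX2* gave no call in the 2D culture. *IRX4* was at 68.4 against 64.9 CPM, a log2 ratio of 0.08 (-0.22 to 0.36), and stayed between 53.5 and 73.7 CPM over all *MYL2* classes. *HEY2*, a Notch target that represses atrial genes, was at 15.5 against 6.48 CPM, a log2 ratio of 1.26 (0.58 to 1.87), an interval above 0 for a gene under the floor of 20 CPM. *IRX3* had a log2 ratio of -0.27 and *IRX2* of -0.53. Of the 22 heart transcription factors at the floor 1, *HOPX*, was called higher and 0 lower, with a median of 0.08. Other genes tied to the ventricle that were not called were *MASP1* (-0.25), the oxygen store *MB* (-0.40), the calcium pump regulator *PLN* (0.35) and the potassium channel *KCNJ2* (-0.31).

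Genes lower in *MYL2*-positive cells are given by name, with no count over a group unless one is stated. *CADM2*, a synaptic adhesion molecule, was at 74.2 against 364 CPM in the 2D culture (log2 ratio -2.30), and the glutamate receptor subunit *GRIA4* at 94.2 against 326 (-1.79). *EPHA4*, an ephrin receptor, was at 55.5 against 175 CPM (-1.66). *BMP2*, a ligand that patterns the atrioventricular canal, was at 159 against 397 CPM (-1.32), and *RSPO3*, a secreted WNT enhancer, at 316 against 769 (-1.28). *RSPO3* fell over the classes from 769 CPM at 0 *MYL2* UMIs to 589, 510, 180 and 53.5. The WNT list, of 10 genes, held *RSPO2* and *RSPO3* as lower and the R-spondin receptor *LGR4* as higher, at 286 against 67.0 CPM. Of the 9 sinus node and conduction genes at the floor 2 were lower and 0 higher, with a median of -0.89, and *TBX3*, the repressor that marks that tissue, had a log2 ratio of -1.02 that was not called.

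Metabolic and cell cycle lists gave few calls in the 2D culture, where 1.54% of all genes at the floor were higher and 0.344% lower. At those shares a count of 0 or 1 does not set a list of this size apart. The glycolysis list had 0 of 20 genes called in either direction, with a median log2 ratio of -0.43, and the hypoxia list 0 of 16, with a median of -0.52. Fatty acid oxidation had 1 of 19 higher with a median of 0.03, the higher gene being *FABP3*, which carries fatty acids in muscle, at 1079 against 427 CPM. Nuclear genes of oxidative phosphorylation had 0 of 42 called and a median of 0.11. Calcium handling had 0 of 16 called, with a median of 0.29. No gene of the S or G2M lists was called among 11 and 5 at the floor, and feedback genes of FGF and ERK signalling had 0 of 10 called. The gap junction gene *GJA1* was higher, at 35.5 against 5.17 CPM (log2 ratio 2.78).

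Of 6 smooth muscle genes at the floor 2 were higher in the 2D culture and 0 lower. *TAGLN*, an actin-binding protein of smooth muscle and of young cardiomyocytes, was at 1177 against 234 CPM in the 2D culture (log2 ratio 2.33), and *CNN1*, smooth muscle calponin, at 541 against 201 (1.43). The smooth muscle markers summed to 3628 against 1844 CPM in the 2D culture, 3754 against 1814 in cardioids without PD173074 and 1076 against 3481 in cardioids with it. Skeletal muscle markers summed to 52.3 against 41.4 CPM in the 2D culture, with *MYOD1*, *MYOG* and 9 others of 20 at 0 UMIs in the *MYL2*-positive cells. Stromal markers summed to 875 against 671 CPM, while barcodes outside the cardiomyocyte gate had 17796, and *COL1A1* UMIs lay in 36 of the 239 cells. Endothelial markers were at 78.7 against 164 CPM, epithelial ones at 686 against 413 and epicardial ones at 656 against 382. The epithelial and epicardial lists share the keratins *KRT8* (388 against 209 CPM), *KRT18* (191 against 73.1) and *KRT19* (56.1 against 66.6). These keratins hold most of both sums, so the epithelial and epicardial values are not separate results. No doublets were called or removed, and the part of these marker levels in the ratios was not tested.

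The *MYL2*-positive cells lay near each other in expression. Among the 15 nearest cardiomyocytes of each cell, in principal components made without *MYL2*, on average 39.7% were *MYL2*-positive in the 2D culture, where the members are 3.43% of cardiomyocytes. The mean was 24.1% for cells with 2 to 4 *MYL2* UMIs, 47.2% with 5 to 19 and 69.1% with 20 or more, against 6.65% for cells with 1 UMI and 2.01% for those with 0. In cardioids without PD173074 it was 29.5%, where the members are 1.01%, and with PD173074 12.7%, where they are 0.295%. The cells richest in *MYL2* thus lay mostly beside other *MYL2*-positive cells, while cells with 2 to 4 UMIs lay mostly beside *MYL2*-negative ones.

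A stricter gate changed the list. When *TNNT2* and *MYH6* had to reach 0.5% of UMIs, 38 *MYL2*-positive cells were left among 1483 cardiomyocytes of the 2D culture, 38 genes were higher and 1 was lower, and 25 of the 121 were among the 38. The sign was the same for 114 of the 121. *MYH7* had a log2 ratio of 4.54 (4.26 to 4.82) under that gate, *HOPX* 3.96, *ACTA1* 1.57 and *MYL7* 1.34. Stromal collagen genes were called higher in the 38 cells too: *COL1A1* was at 110 against 13.0 CPM, a log2 ratio of 3.08 on 20 UMIs, and *COL1A2* at 121 against 18.7, a log2 ratio of 2.69 on 22 UMIs. Without the stricter gate they had 0.40 and 0.47 and were not called. The part of stromal RNA in the ratios under this gate was not tested. *NPPB* had 0.53 (-1.38 to 1.94) on 4 UMIs, and *NPPA*, *TNNI3* and *EPHA4* were not called, with 1.70, 0.83 and -1.57. The cells left out, 201 of the 239, were the *MYL2*-richer ones, with a median of 5 *MYL2* UMIs against 3 in those kept.

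*MYL2* was also found below the gate. In the 2D culture 40 of 1245 barcodes that failed the gate, 3.21% (2.31 to 4.35), had 2 or more *MYL2* UMIs, with a median of 11 and 14 cells at 20 or more, and 38 of them reached 0.05% of UMIs from *TNNT2* and *MYH6*. They had *MYH7* at 1693 CPM and *MYL7* at 5661, against 1510 and 6631 in the 239 cells, and *MYH6*, which the gate uses, at 172 against 1069. *COL1A1* was at 2204 CPM in these 40 barcodes, against 198 in the 239 cells and 7125 in other barcodes outside the gate. *IRX3* had no UMI in them, against 55.5 CPM in the 239 cells. Whether RNA of other cells takes part in these barcodes was not tested. In each of the cardioid samples 1 such barcode was found.

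Higher genes recurred in the cardioids without PD173074. Of the 121 genes of the 2D culture 52 were called higher there too, which is 43.0% of the 121 and 65% of the 80 called there, and 105 of 109 at the floor had the same sign. In cardioids with PD173074 16 were called higher (13.2% of the 121, 17.2% of the 93), and 76 of 107 had the same sign. Of the 27 lower genes 4 were lower in each cardioid sample, and 26 of 26 and 17 of 19 at the floor had the same sign. The genes called higher in all 3 samples numbered 13: *TNNI3*, *TNNC1*, *TCAP* and *LMOD2* of the sarcomere list, *MYH7* and *MYL3* of the ventricular list, *SORBS2* of the stretch list, the small heat shock protein *HSPB3*, the collagen *COL21A1*, the transcription factors *CREB5* and *CUX2*, the WNT receptor *FZD1* and the TWEAK receptor *TNFRSF12A*. *CADM2*, *EPHA4* and *NRXN3*, a synaptic neurexin, were lower in all 3, and 61.3% of the *EPHA4* UMIs of the 31 cells without PD173074 lay in 1 cell. The genes called the other way were *PENK*, a neuropeptide precursor, without PD173074 and *FGF12*, *NPPA* and *TAGLN* with it.

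**Figure D5:**
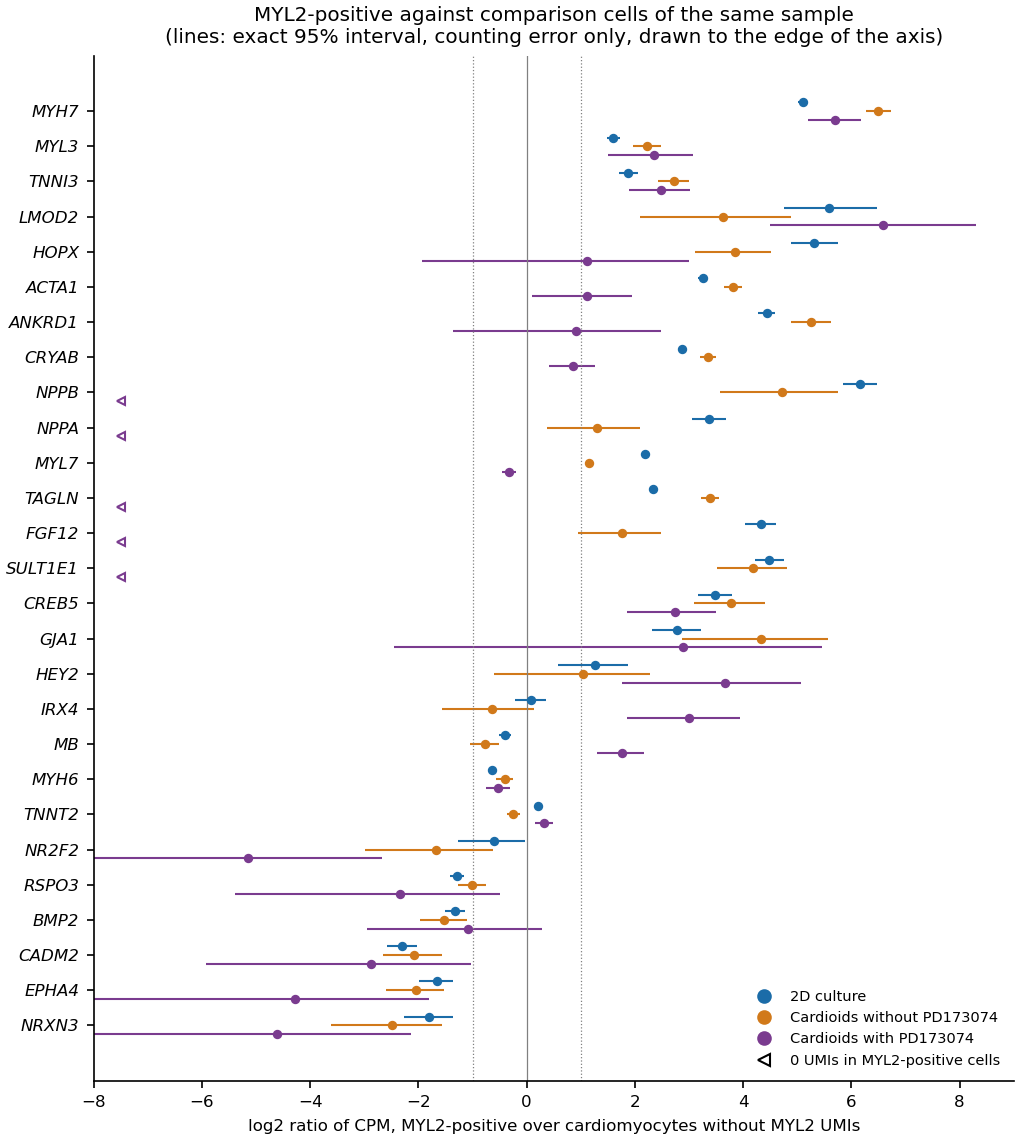
Log2 ratio of *MYL2*-positive over *MYL2*-negative cardiomyocytes for 27 genes in the 3 samples, with exact 95% intervals and dotted lines at 2-fold; an open triangle stands for a gene with 0 UMIs in the *MYL2*-positive cells. *MYH7* is at 5.11, 6.5 and 5.70, while *MYL7* is at 2.19, 1.16 and -0.33.

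Cardioids without PD173074, on 31 cells, resembled the 2D culture in the sarcomere and stretch lists but not in every group. The sarcomere list had 9 of 38 genes higher and the stretch list 7 of 12, with medians of 0.73 and 1.64. The atrial list had 1 of 11 higher and a median of -0.41, against 3 of 10 and 0.47 in the 2D culture. *COL1A1*, lower here, was not called in the 2D culture (0.40). *MYL3* was at 551 against 118 CPM (log2 ratio 2.22) and *ANKRD1* at 396 against 10.3 (5.26). *TNNI3* was at 461 against 69.8 CPM, with 37.2% of its UMIs in 1 cell and a log2 ratio of 2.10 without it in place of 2.72. *NPPA* was not called (1.30), and *NPPB* had a log2 ratio of 4.72 on 11 UMIs. *TBX3* was lower, at 73.4 against 271 CPM (-1.88), as were *BMP2* (-1.52) and *COL1A1* (-3.19), and the sinus node list had 4 of 11 lower. *IRX4* was again not called, with -0.65. Of 12 genes of the G2M list at the floor 2 were lower and 0 higher, with a summed level over the list of 188 against 762 CPM. They were *TOP2A*, a topoisomerase of dividing cells, with 0 UMIs against 37.0 CPM, and *UBE2C*, a ubiquitin carrier of mitosis, with 1 UMI and a log2 ratio of -3.88 (-9.19 to -1.40).

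The 10 cells of the cardioids with PD173074 differed from the rest of their sample in another set of genes, each on few molecules. *IRX4* was at 106 against 13.3 CPM, a log2 ratio of 3.0 on 9 UMIs in 4 cells, and *HEY2* at 47.3 against 3.73, on 4 UMIs in 2 cells. The ventricular list had 7 of 18 genes higher, with a median of 1.39, and the atrial list 0 higher and 3 of 13 lower, with a median of -0.71. *NR2F2* was at 11.8 CPM from 1 UMI, against 422, a log2 ratio of -5.16 (-10.46 to -2.68). *NPPA*, *FGF12* and *TAGLN* had 0 UMIs in the 10 cells, against 114, 164 and 241 CPM, which with 3 counts as the floor is at least 3.23-fold, 4.62-fold and 6.8-fold lower. *MYL7* was not called, at 6502 against 8155 CPM. *TNNI3* was at 331 against 59.3 CPM, with 64.3% of its UMIs in 1 cell.

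Levels in *MYL2*-positive cells were also set side by side across samples, with the same ratio in *MYL2*-negative cells. *MYL7* was at 6631, 6055 and 6502 CPM in *MYL2*-positive cells of the 2D culture, cardioids without and cardioids with PD173074, whereas in *MYL2*-negative cells it was at 1455, 2710 and 8155. The log2 ratio between *MYL2*-positive cells with PD173074 and those of the 2D culture was -0.03 (-0.15 to 0.10), while between *MYL2*-negative cells it was 2.49. *MYH7* in the 10 cells with PD173074 was below the 2D culture by a log2 ratio of -1.57 (-2.04 to -1.14), and in *MYL2*-negative cells by -2.16. *IRX4* had a log2 ratio of 0.64 (-0.53 to 1.62) between the same *MYL2*-positive cells and -2.29 between the *MYL2*-negative ones. *RSPO3*, on 2 UMIs with PD173074, had a log2 ratio of -3.74 (-6.79 to -1.88) in the same comparison of *MYL2*-positive cells and of -2.67 in *MYL2*-negative ones.

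Depth and library facts touch all of these values. The first runs held 46304366 UMIs in the 2D culture, 23074862 in cardioids without PD173074 and 37765195 in cardioids with it, and the *MYL2*-positive cells 1550077, 245090 and 84589 of them. A count of 0 in the *MYL2*-positive cells therefore allows up to 1.94, 12.2 and 35.5 CPM, taking 3 counts as the limit. Runs of 1 group shared 99.3% or more of their barcodes, runs of different groups at most 0.737%, and no *MYL2*-positive barcode was shared between groups. Mitochondrial UMIs had a median of 4.54% against 5.17% in the 2D culture, 4.40% against 3.42% without PD173074 and 3.26% against 4.18% with it. In the 2D culture 24 *MYL2*-positive cells (10.0%) were deeper than the 95th percentile of *MYL2*-negative ones.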

How the data were processed

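Single-cell RNA of H9-derived cells was measured in 11 droplet libraries (3′ chemistry). The labels do not give the chemistry version of each library, and its part in the shares and levels of the groups was not tested. The deposited values are raw UMI counts per gene and barcode, which the authors made with Cell Ranger 7.0.0. The submitters' processing notes give hg38 as the build and no annotation release. Libraries of 1 group shared nearly all barcodes and were taken as repeat runs of the same droplets, so run 1 of each group was used and each group is 1 sample. Barcodes were filtered as the report states, UMIs were summed over *MYL2*-positive and *MYL2*-negative cardiomyocytes, and CPM, log2 ratios and exact 95% intervals (Clopper-Pearson for ratios and shares, Poisson for levels) were computed. No test across samples was possible. Cells are not replicates.

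The cells, the gene lists and the markers were chosen with earlier results of these data known. Named genes are a set of 33 and, by rule, the 10 highest and lowest called genes of the 2D culture and up to 4 genes of each of 36 lists. Genes outside it, namely *ACTC1*, *COL21A1*, *CUX2*, *FZD1*, *HSPB3*, *MYOD1*, *MYOG*, *PENK*, *SORBS2*, *TCAP*, *TNFRSF12A*, *TNNC1*, *TOP2A* and *UBE2C*, were chosen after their values were seen. One gene, and the results that need it, are not reported here. Thinning drew UMIs with a fixed seed. Neighbours used 30 components of 2000 variable genes, without mitochondrial and ribosomal protein genes. Simulated counts were Poisson draws for the summed cells, with no variation between cells, so they cover counting error only. They do not give the error of calls where 1 cell holds many of the UMIs. At the 2D cells' depth, all 50 genes changed 3-fold and 0 of 7620 unchanged genes were called. For cardioids without PD173074 it was 32 of 50 and 0 of 8305, and with PD173074 23 of 50 and 18 of 8614. Alternatives covered the *MYL2* threshold, run, gate, mitochondrial limit, scaling, floor, fold, depth weighting and comparison cells. Tools were Python 3.11.15, numpy 2.4.6, scipy 1.17.1, scikit-learn 1.9.0 and matplotlib 3.10.9.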

Additional observations from a re-analysis of the deposited data

Results flagged for a closer look

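A few genes were called in opposite directions in different samples, and these differences were not tested, since each group is 1 sample. *FGF12* had a log2 ratio of 4.32 in the 2D culture and 0 UMIs in the 10 *MYL2*-positive cells of cardioids with PD173074. *NPPA* had 3.37 in the 2D culture and 0 UMIs in those 10 cells. *TAGLN* had 2.33 in the 2D culture and 3.39 in cardioids without PD173074, and 0 UMIs in the same 10 cells. *PENK*, proenkephalin, had 1.88 in the 2D culture and 0 UMIs in the 31 *MYL2*-positive cells of cardioids without PD173074, where it was called lower.

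The 40 barcodes of the 2D culture that failed the *TNNT2* and *MYH6* gate and had 2 or more *MYL2* UMIs lie outside every comparison made here. They had *MYH7* at 1693 and *MYL7* at 5661 CPM.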

How the results depend on the processing

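No paired analysis was possible because each group is 1 set of droplets and no result comes from a test. Counts of genes are given as higher then lower. With 5 or more *MYL2* UMIs as the rule, lower genes numbered 92 (2D culture), 67 (cardioids without PD173074) and 10 (with PD173074). Run 2 gave 48 lower genes in the 2D culture and 35 with PD173074, and run 3 gave 23 without it. The 0.5% gate gave 38 and 1 in the 2D culture, 6 lower without PD173074 and 23 lower with it. A 1.5-fold limit gave 219 and 146, 167 and 116, and 176 and 115 in that order of samples. Means of per-cell shares came without an interval, so genes there were called on the ratio alone, beyond 2-fold. They gave 214 and 212, 445 and 941, and 1257 and 2062, which cannot be set beside counts that used the interval. Without the deepest members, chosen after seeing the data, the 2D culture had 57 lower genes. The other 2 alternatives chosen then, without the cell richest in *MYL2* or without genes resting on few cells, moved no count by over 1.5 times, nor did the scalings, floors, depth weighting, mitochondrial limit or all other cardiomyocytes as comparison. Genes resting on few cells were left out of the higher genes only, so the lower counts could not move. With PD173074 this took the higher genes from 93 to 62.

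Shares of *MYL2*-positive cells were 8.31%, 3.28% and 1.18% with 1 or more UMIs and 1.77%, 0.487% and 0.0591% with 5 or more. With 3 or more the 2D culture had 2.49%. The 0.5% gate gave 2.56% in the 2D culture, 0.410% without PD173074 and 0.340% with it, and thinning gave 2.14%, 0.549% and 0.0321%. Detection in the 2D culture, *MYL2*-positive then negative, was 59.4% and 3.04% for *MYH7* at 1000 UMIs and 77.4% and 7.77% unthinned. *ACTA1* had 31% and 8.62%, then 53.1% and 22.4%. Unthinned *MYL7* had 97.9% and 80.8%, with 51.3% in negative cells at 1000 UMIs. Unthinned *HOPX* had 23.8% and 0.878%, with 0.157% in negative cells at 1000 UMIs.

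For single genes within samples 5667 recomputed log2 ratios moved by less than their interval, 556 moved by more and 1 reversed: *COL1A2* in cardioids without PD173074, lower in the 31 cells, had 0.49 (-4.83 to 3.0) under the 0.5% gate, on 1 UMI in 6 cells. The cause was not tested. Ratios with 0 UMIs in either set, before or after, were left out of the 5667, 556 and 1. Among those left out under the 0.5% gate was *MYL3*, called higher in the 10 cells with PD173074 (2.35). It had 0 UMIs in the 7 cells left, against 44.1 CPM. *LMOD2*, *NPPB*, *GJA1* and *SYNPO2L*, called higher in the 31 cells without PD173074, had 0 UMIs in the 6 cells left. With 10 cells, depth limits the sample with PD173074 most.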

Other observations

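Some of the most unequal genes of the *MYL2*-positive cells belong to none of the cardiac groups above. *SULT1E1*, an estrogen sulfotransferase, was at 154 against 6.88 CPM in the 2D culture, a log2 ratio of 4.48 (4.21 to 4.75) with a UMI in 69 of 239 cells, and at 110 against 6.05 CPM in cardioids without PD173074 (4.19). In the 10 cells with PD173074 it had 0 UMIs, which allows up to 35.5 CPM. *EYA4*, a transcriptional coactivator known from hearing loss and heart disease, was at 41.3 against 2.68 CPM in the 2D culture (3.95) and 32.6 against 2.58 without PD173074 (3.66).

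Of 10 cell cycle inhibitors and D-type cyclins at the floor in the 2D culture, 1 was called higher. It was *CDKN2A*, which codes for the p16 and ARF inhibitors, at 25.8 against 4.44 CPM (2.54, UMIs in 28 cells), and it was also called higher without PD173074, at 36.7 against 2.09 CPM on 9 UMIs. Of 24 basement membrane and matrix genes 2 were higher in the 2D culture, the laminin chains *LAMA4* (78.7 against 30.2 CPM) and *LAMB1* (62.6 against 22.6). *LAMA4* was called higher with PD173074 too, at 189 CPM, a log2 ratio of 3.32, on 16 UMIs in 6 cells. Among Notch genes *HES4*, a target of the pathway, was higher in the 2D culture, at 49.0 against 15.8 CPM (1.64), 1 of 6 genes at the floor. Of 14 immediate early genes 1 was higher, *IER3* (1.67), and 1 lower, *KLF2* (-1.81). Autonomic receptors gave 0 calls of 8 genes, retinoic acid genes 0 of 5 and FGF ligands and receptors 0 of 4. With 1.54% of all genes at the floor higher and 0.344% lower, a count of 0 does not set such short lists apart.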
